A study of Rattus norvegicus with 12 samples.

Results

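Mechanistic target of rapamycin complex 1 (mTORC1) and its nutrient-sensing regulators were examined as 10 genes chosen by symbol: Mtor, Rptor, Tsc1, Tsc2, Rheb, Rps6kb1, Eif4ebp1, Sesn1, Sesn2 and Ddit4. A probe set was found for 9 of the 10 genes, each by 1 of 18957 detected probe sets (11053 genes with 1 symbol), while Sesn2 has no named probe set here. RNA came from the hind leg muscles of newborn Wistar rats, all male, whose mothers received 1 of 3 diets from day 1 of pregnancy. The groups were low protein food with taurine in the drinking water at 2% w/v (LP+taurine), low protein food alone (LP) and control food. Taurine is a sulphonic acid made from cysteine that muscle holds in large amounts. There were 4 arrays in each group, and each of the 12 arrays held the pooled muscle of 3 newborns of 1 dam, so the dam was the replicate. Neither the protein content of the foods nor the amount of taurine drunk is given in the sources used here.

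mTORC1 is a protein kinase complex that promotes protein synthesis and restrains autophagy when amino acids, energy and growth factors are plentiful. Amino acids act through the Rag GTPases on the lysosome, while insulin, energy state and stress act through the TSC complex and the small GTPase Rheb. In muscle the pathway is known for its part in growth and in the response to feeding and fasting. Much of its regulation is by phosphorylation and protein binding, which a measurement of RNA does not show.

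All values are log2 expression per probe set, and a difference is the mean of the first group minus that of the second. The array medians were 7.71 to 7.74 in LP+taurine, 7.73 to 7.75 in LP and 7.66 to 7.67 in control. The tissue label was checked with skeletal muscle markers: 7 of 8 had a probe set, and Acta1 and Ckm, skeletal actin and muscle creatine kinase, lay above the 99th percentile of all probe sets. Of 14 hepatocyte markers 11 had a probe set, and their summed log2 level was 75.07 to 81.45 in LP+taurine, 75.47 to 87.29 in LP and 74.64 to 122.20 in control. Control 3 and control 4, with a mean hepatocyte marker level of 10.18 and 11.11, stood apart from the other 10 arrays at 6.79 to 7.94. The genes of the set and the further genes that passed against control are therefore also given without these 2 arrays. The 6 endothelial markers, all with a probe set, summed to 53.08 to 54.10 in LP+taurine, 54.06 to 54.50 in LP and 52.27 to 53.29 in control. The LP arrays lay above all control arrays in this sum, but not in each marker. Pecam1, Cdh5 and Kdr overlapped, with Pecam1 at 9.31 on LP 1 and 9.35 on control 1. Tie1, Esam and Sox18 did not overlap. The 6 of 8 adipocyte markers with a probe set summed to 41.54 to 47.69 in LP+taurine, 46.08 to 56.96 in LP and 47.90 to 50.25 in control. In this sum the LP+taurine arrays lay below all control arrays, but not in each marker. Pck1 was at 9.51 and 10.91 on control 3 and control 4, against 7.68 and 7.48 on control 1 and control 2. Adipoq overlapped, at 8.17, 8.67, 7.52 and 6.15 in LP+taurine, against 9.43, 8.85, 7.80 and 7.73 in control. Cidec did not overlap, at 5.88 to 6.95 in LP+taurine and 7.15 to 7.93 in control. In pooled tissue, fewer cells of a type and less RNA per cell cannot be told apart.

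Promoter sequence was taken from RefSeq (build GRCr8) for 8 of the 10 genes, leaving out Rptor and Eif4ebp1. The 170 bases before the annotated start are shown for the 4 genes with a promoter that were higher in LP than in control, and for Sesn1, whose values ranged most between arrays. Capitals mark a GC box (GGGCGG, or CCGCCC where it lies on the other strand) and a CCAAT box (CCAAT, or ATTGG on the other strand). The stretches lie at chr5:164167815-164167984 on the plus strand for Mtor, chr10:14160240-14160409 on the minus strand for Tsc2, chr10:71865212-71865381 on the minus strand for Rps6kb1, chr20:28437038-28437207 on the minus strand for Ddit4 and chr20:46948549-46948718 on the plus strand for Sesn1.
Mtor: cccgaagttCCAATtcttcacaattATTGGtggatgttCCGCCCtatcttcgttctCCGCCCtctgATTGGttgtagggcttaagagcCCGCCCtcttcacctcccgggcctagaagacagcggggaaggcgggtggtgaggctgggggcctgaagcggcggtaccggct
Tsc2: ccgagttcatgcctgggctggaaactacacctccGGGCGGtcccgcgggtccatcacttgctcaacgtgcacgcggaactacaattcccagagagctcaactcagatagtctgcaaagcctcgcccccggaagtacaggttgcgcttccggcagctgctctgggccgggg
Rps6kb1: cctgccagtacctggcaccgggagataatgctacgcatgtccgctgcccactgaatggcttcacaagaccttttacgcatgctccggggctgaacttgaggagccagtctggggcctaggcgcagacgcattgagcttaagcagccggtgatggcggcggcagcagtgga
Ddit4: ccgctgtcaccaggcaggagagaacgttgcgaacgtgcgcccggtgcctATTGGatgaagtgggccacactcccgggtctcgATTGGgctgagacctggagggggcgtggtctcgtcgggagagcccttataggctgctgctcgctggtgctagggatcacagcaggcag
Sesn1: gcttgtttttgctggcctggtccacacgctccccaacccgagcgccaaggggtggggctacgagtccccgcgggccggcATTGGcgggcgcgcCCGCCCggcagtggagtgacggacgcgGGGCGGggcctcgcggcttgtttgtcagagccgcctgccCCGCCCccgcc

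In the 250 bases before the start, searched on both strands, the GC box was found in 6 of the 8 promoters, against 30.5% of 33469 promoters in the RefSeq table. The CCAAT box was found in 4 of 8, against 34.0% of all. The Mtor promoter held 4 GC boxes and 3 CCAAT boxes, the Sesn1 promoter 3 and 1, and the Ddit4 promoter 1 and 2. An E-box (CACGTG) was found in the Rheb promoter, 86 bases before the start, and in 5.59% of all promoters. The cyclic AMP response element (TGACGTCA, 1.59% of all), the composite element of ATF4 and C/EBP factors (TGATGNAAT, 0.944%) and the FoxO core (GTAAACA, 3.22%) were found in 0 of 8. The GC content of the 8 windows was 53.6% to 69.6%, above the median of all promoters, 51.2%, and the GC box is made of G and C alone. A match of letters is a description of the sequence, and its absence from a window says nothing about the factor.

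The first comparison asked whether a maternal low protein diet was accompanied by other RNA levels of the complex and its regulators in the newborn muscle. In LP, 5 of the 9 measured genes were higher than in control and 0 were lower: the subunit genes Mtor and Rptor, the inhibitor gene Tsc2, the substrate kinase gene Rps6kb1 and the stress-induced inhibitor gene Ddit4. Their differences were 0.22 to 0.31 on the log2 scale, or 1.17-fold to 1.24-fold. The threshold was a limma adjusted p of 0.05, with adjustment over all 18957 probe sets. At this threshold 33.7% of all probe sets differed between LP and control and 21.8% were higher in LP, so the 5 of 9 stand beside a large background. Among the 9478 probe sets above the median level the share higher in LP was 35.2%, and 4 of the 8 genes there passed. The median difference of the 9 genes was 0.22, against 0.07 for all probe sets, and 6 of 9 had an unadjusted p under 0.05, as did 47.6% of all probe sets. The 4 LP arrays lay above the 4 control arrays for the same 5 genes, an order seen in 22.2% of all probe sets.

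**Figure D1:**
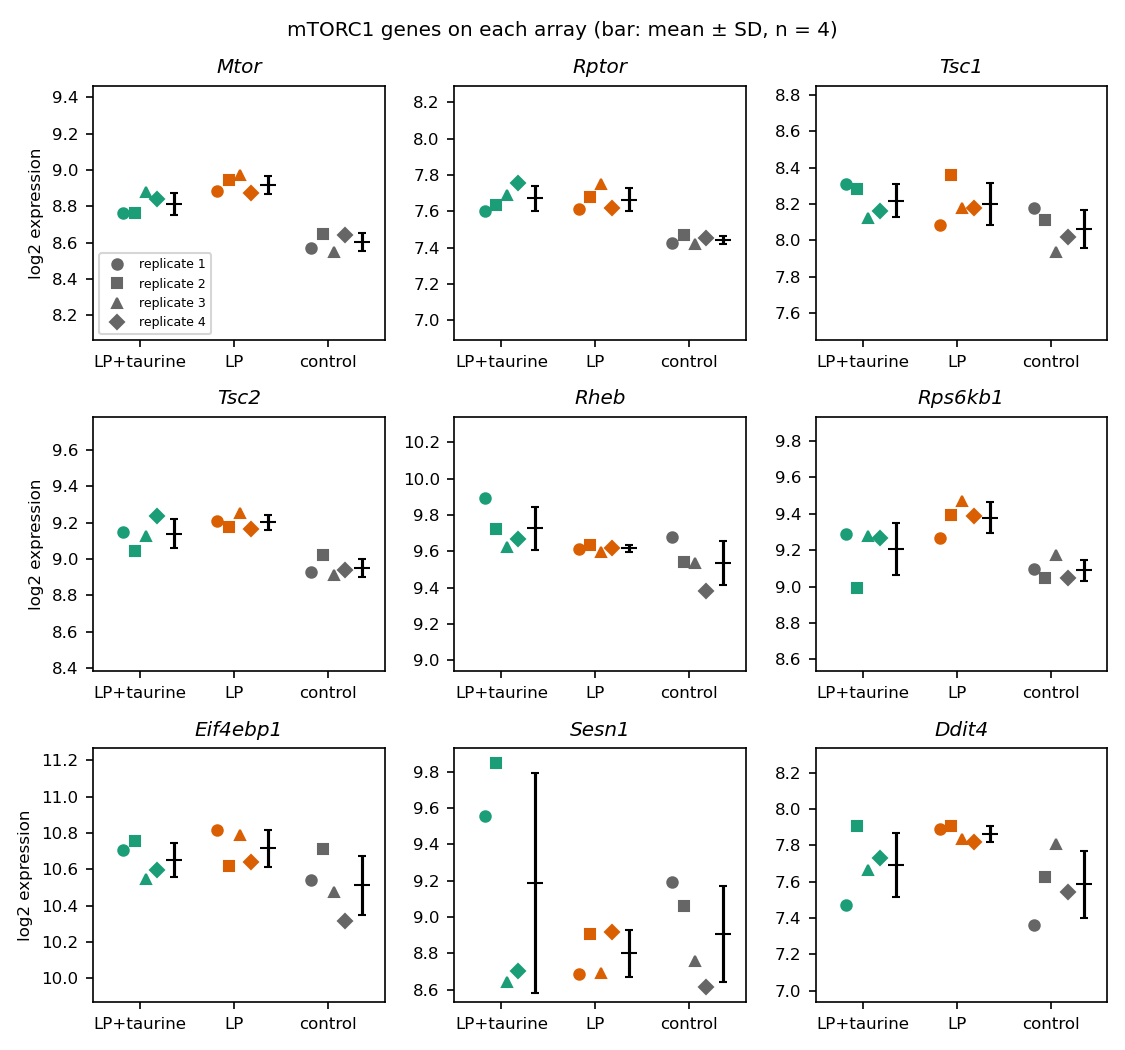
Log2 expression of the 9 measured genes on each of the 12 arrays (vertical axis, with the same span in each panel), by diet group (horizontal axis). Symbols give the replicate number and bars the mean ± SD of 4 arrays; for Mtor and Rptor all arrays of both low protein groups lie above the controls, while Sesn1 is highest on LP+taurine 1 and 2.

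Mtor (probe set 10873934), which encodes the kinase itself, was at 8.88, 8.94, 8.97 and 8.87 on the 4 LP arrays, against 8.57, 8.65, 8.55 and 8.64 on the 4 control arrays. The lowest LP array lay above the highest control array. The means were 8.92 ± 0.05 in LP and 8.60 ± 0.05 in control (SD, n = 4 each), a difference of 0.31 (SE 0.05, limma adjusted p = 0.00437). Mtor was the 1 gene of the 9 that also passed after cyclic loess normalization, which removes level-dependent differences between arrays, at 0.16 (adjusted p = 0.0492). Without control 3 and control 4 the difference was again 0.31 (adjusted p = 0.0128). In the authors' deposited table Mtor was likewise the 1 gene of the set listed, with linear means of 484 in LP and 389 in control and a ratio of 1.24.

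Rptor (probe set 10740050), which encodes the scaffold raptor that brings substrates to the kinase, was at 7.62, 7.68, 7.75 and 7.62 on the LP arrays, against 7.42, 7.47, 7.42 and 7.46 on the control arrays. All LP arrays lay above all control arrays, which differed among themselves by 0.02 (SD). The difference was 0.22 (SE 0.05, limma adjusted p = 0.00974), and 0.22 without control 3 and control 4 (adjusted p = 0.0434). It was 0.14 after median centring of the arrays (adjusted p = 0.0524) and 0.13 after cyclic loess (adjusted p = 0.0799).

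The TSC complex, encoded by Tsc1 and Tsc2, turns Rheb off and so restrains mTORC1. Tsc2 (probe set 10741143), which encodes the subunit that acts on Rheb, was at 9.21, 9.18, 9.25 and 9.16 on the LP arrays, against 8.93, 9.02, 8.91 and 8.94 on the control arrays. The groups did not overlap, and Tsc2 rose by 0.25 (SE 0.05, limma adjusted p = 0.00742). It was at 0.23 without control 3 and control 4 (adjusted p = 0.0404), 0.13 after quantile normalization (adjusted p = 0.0728) and 0.10 after cyclic loess (adjusted p = 0.179). Tsc1 (probe set 10834837), which encodes the partner that stabilises the Tsc2 protein, was at 8.08, 8.36, 8.18 and 8.18 in LP, against 8.18, 8.11, 7.94 and 8.02 in control. These values overlapped, and the difference of 0.14 (95% interval -0.02 to 0.30) did not pass (limma adjusted p = 0.151). Leaving out control 3 and control 4 gave 0.06 (adjusted p = 0.652). Rheb (probe set 10940653), the GTPase that activates the kinase, was at 9.61, 9.63, 9.59 and 9.62 in LP, against 9.68, 9.54, 9.53 and 9.38 in control. The narrow LP values lay inside the spread of the controls, and the difference was 0.08 (95% interval -0.07 to 0.23, limma adjusted p = 0.373). Leaving out control 3 and control 4 gave 0.01 (adjusted p = 0.963).

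Of the substrates, Rps6kb1 (probe set 10746095), which encodes the S6 kinase S6K1 that promotes translation, was at 9.27, 9.39, 9.47 and 9.39 on the LP arrays, against 9.09, 9.04, 9.17 and 9.04 on the control arrays. All LP arrays were higher, by 0.29 on average (SE 0.07, limma adjusted p = 0.0124). The difference was 0.31 without control 3 and control 4 (adjusted p = 0.0367), 0.17 after quantile normalization (adjusted p = 0.0990) and 0.14 after cyclic loess (adjusted p = 0.158). Eif4ebp1 (probe set 10792163), which encodes the translation repressor 4E-BP1 that mTORC1 inactivates, was at 10.82, 10.62, 10.79 and 10.64 in LP, against 10.54, 10.71, 10.48 and 10.32 in control. Control 2 lay among the LP arrays, and the difference of 0.20 (SE 0.08) did not pass (limma adjusted p = 0.0745). Without control 2 it was 0.27 and passed (adjusted p = 0.0263), and without control 3 and control 4 it was 0.09 (adjusted p = 0.470).

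The stress-induced inhibitors differed in their values. Ddit4 (probe set 10832920), also called REDD1, restrains mTORC1 through the TSC complex under hypoxia, energy stress and glucocorticoids. It was at 7.89, 7.91, 7.83 and 7.82 on the LP arrays, against 7.36, 7.63, 7.81 and 7.54 on the control arrays. The LP arrays lay close together and above all controls, with control 3 just below the lowest of them. Ddit4 was 0.28 higher in LP (SE 0.10, limma adjusted p = 0.0448), and 0.37 higher without control 3 and control 4 (adjusted p = 0.0373). Its adjusted p was 0.0553 to 0.116 when any 1 of 9 arrays was left out, namely LP+taurine 3 or 4, any LP array, or control 1, 2 or 4. It was 0.199 after quantile normalization and 0.274 after cyclic loess. Sesn1 (probe set 10830561), which encodes sestrin 1, a stress-induced protein that restrains mTORC1 through the GATOR complexes, was at 8.69, 8.91, 8.69 and 8.92 in LP, against 9.19, 9.06, 8.76 and 8.62 in control. The groups overlapped, and the difference was -0.11 (95% interval -0.62 to 0.40, limma adjusted p = 0.740). It was -0.33 without control 3 and control 4 (adjusted p = 0.410).

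The next comparison set LP+taurine against the same 4 control arrays, so it shares them with the first. In LP+taurine 3 of the 9 genes were higher than in control and 0 were lower, namely Mtor, Rptor and Tsc2. Over all probe sets 13.8% passed and 10.2% were higher in LP+taurine. Among the 9478 probe sets above the median level 2145 were higher, and 2 of the 8 genes there passed, which is near the share of all there. Of the 9 genes 4 had an unadjusted p under 0.05 by limma, as did 35.3% of all probe sets. The median difference of the 9 was 0.19, against 0.06 for all probe sets. For the same 3 genes the LP+taurine arrays lay above all control arrays, an order seen in 14.2% of all probe sets.

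Mtor was at 8.76, 8.76, 8.88 and 8.84 on the LP+taurine arrays, all above the highest control array at 8.65. Its mean of 8.81 ± 0.06 in LP+taurine exceeded that of 8.60 ± 0.05 in control (SD, n = 4 each) by 0.21 (SE 0.05, limma adjusted p = 0.0232). Rptor was at 7.60, 7.64, 7.69 and 7.76 in LP+taurine, above the highest control array at 7.47, with a difference of 0.23 (SE 0.05, limma adjusted p = 0.0190). Tsc2 was at 9.15, 9.04, 9.13 and 9.24 in LP+taurine, with LP+taurine 2 just above control 2 at 9.02, and a difference of 0.19 (SE 0.05, limma adjusted p = 0.0364). Each of these 3 calls depended on single arrays. Without LP+taurine 3, LP+taurine 4, control 1 or control 3 the adjusted p of Mtor was 0.0517, 0.0576, 0.0509 and 0.0655 in that order. Rptor had 0.0505 without LP+taurine 4 and 0.0535 without control 3. Tsc2 had 0.0849, 0.0606 and 0.0896 without LP+taurine 1, 3 and 4, and 0.0698, 0.0931 and 0.0603 without control 1, 3 and 4.

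After cyclic loess 0 of the 9 genes passed against control (Mtor at 0.07, Rptor at 0.16, Tsc2 at 0.05), where 1.76% of all probe sets were higher in LP+taurine. Without control 3 and control 4 none of the 9 passed either (Mtor at 0.20, Rptor at 0.22, Tsc2 at 0.16), where 2.07% of all were higher. In LP against control 5 of 9 passed without these 2 arrays, beside 10.8% of all, and 1 of 9 after cyclic loess, beside 4.98% of all. The share of higher among all calls also moved with the normalization. Of the probe sets that passed in LP against control, 64.6% were higher as deposited, 51.1% after quantile normalization, 36.9% after cyclic loess and 29.4% after median centring. In LP+taurine against control these shares were 73.9%, 46.1%, 29.3% and 32.9%.

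The other genes did not pass in LP+taurine against control. Rheb was at 9.90, 9.72, 9.62 and 9.67 in LP+taurine, highest on LP+taurine 1, and differed from control by 0.19 (95% interval 0.04 to 0.35, limma adjusted p = 0.0795). Tsc1 was at 8.31, 8.28, 8.12 and 8.16, with a difference of 0.16 (adjusted p = 0.146). Eif4ebp1 was at 10.71, 10.76, 10.55 and 10.60 in LP+taurine, a difference of 0.14 (adjusted p = 0.240). All 3 overlapped the controls. Rps6kb1 was at 9.29, 8.99, 9.28 and 9.27, so that LP+taurine 2 lay below all controls and the other 3 above them, with a difference of 0.12 (adjusted p = 0.249). Ddit4 was at 7.47, 7.90, 7.66 and 7.73, so that LP+taurine 2 lay above all controls and the other 3 among them, with a difference of 0.11 (adjusted p = 0.446). These 5 genes, without control 3 and control 4, were at 0.12, 0.07, 0.03, 0.14 and 0.20 in the order named, with an adjusted p of 0.276 to 0.869.

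Whether taurine altered the levels under low protein was asked by setting LP+taurine against LP. Of the 9 genes 0 passed limma's test, 1 had an unadjusted p under 0.05, and no gene had groups that did not overlap. Over all probe sets 0% passed the adjusted threshold, with 2047 of 18957 (10.8%) at an unadjusted p under 0.05, and 3.35% had all LP+taurine arrays above all LP arrays and 3.51% all below. Rps6kb1 averaged 9.21 ± 0.14 in LP+taurine and 9.38 ± 0.08 in LP (SD, n = 4 each), a difference of -0.17 (95% interval -0.33 to -0.02, unadjusted p = 0.0331 and adjusted p = 0.435 by limma). Mtor averaged 8.81 ± 0.06 in LP+taurine and 8.92 ± 0.05 in LP, a difference of -0.11 (95% interval -0.21 to 0.00). By limma its unadjusted p was 0.0556 and its adjusted p 0.477. LP+taurine 3 reached 8.88, inside the LP values that began at 8.87. The authors' deposited table flags Mtor as partially rescued by taurine, a flag on 195 of its 895 probe sets, with a p of 0.00563 and linear means of 449 in LP+taurine and 484 in LP. Rptor differed by 0.01 (95% interval -0.10 to 0.12) and Tsc2 by -0.06 (95% interval -0.18 to 0.05). The intervals of Tsc1, Rheb, Eif4ebp1, Sesn1 and Ddit4 also held 0, so neither direction was shown for them.

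**Figure D2:**
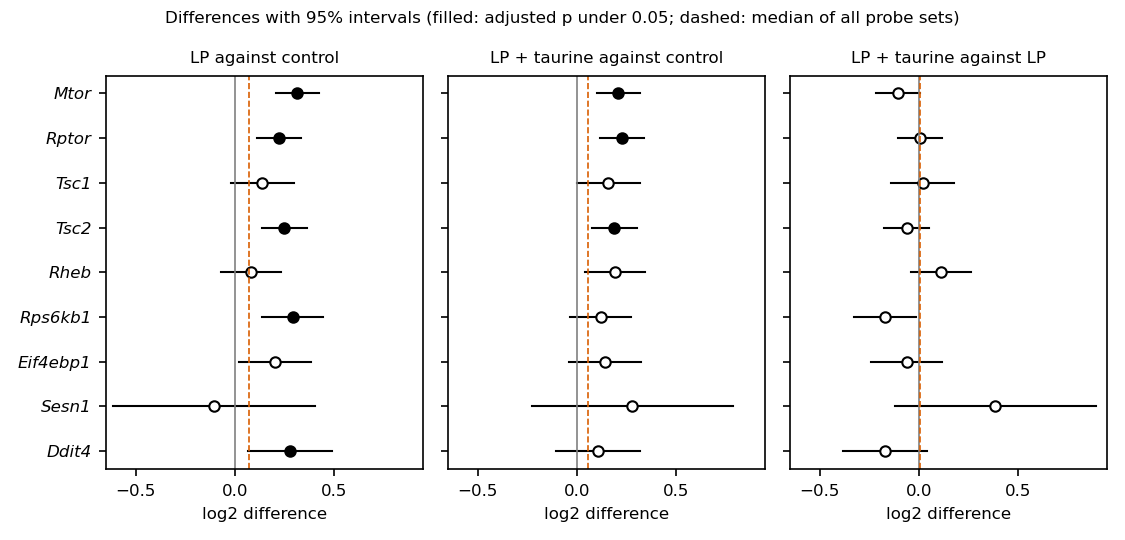
Log2 difference with its 95% interval (horizontal axis) of the 9 genes in the 3 comparisons, from limma. Filled points have an adjusted p under 0.05 over all probe sets and the dashed line is the median of all probe sets; 5, 3 and 0 genes are filled, and the interval of Sesn1 is the widest in each panel.

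Sesn1 had the largest range over the 12 arrays, 1.23, with Ddit4 at 0.55 and Rheb at 0.51. It was at 9.56, 9.85, 8.64 and 8.70 on the LP+taurine arrays, so that LP+taurine 1 and 2 lay above every other array of the study. LP+taurine 3 and 4 lay among the lowest, near control 4 at 8.62 and LP 1 and 3 at 8.69. Its SD was 0.61 in LP+taurine, 0.13 in LP and 0.27 in control. The difference was 0.28 against control (limma adjusted p = 0.402) and 0.39 against LP (adjusted p = 0.554), and 0.06 against control without control 3 and control 4 (adjusted p = 0.908). Without LP+taurine 1 and 2 both turned, to -0.23 and -0.13.

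A list of 10 glucocorticoid target genes had a median relative to the control mean of 0.53, 1.14, 0.09 and 0.20 on LP+taurine 1 to 4, so it was also highest on LP+taurine 1 and 2. It was 0.10 to 0.24 in LP and -0.07 to 0.11 in control. In LP 2 of the 10 genes were higher than in control, beside 21.8% of all probe sets, and in LP+taurine 1 was, beside 10.2%. The clock gene Per1 was 0.89 higher in LP (limma adjusted p = 0.0466). It had 0.0579 to 0.117 without LP+taurine 4, any LP array or any control array, and 0.0902 without control 3 and control 4 together. The other call in LP was Cdkn1a. Sgk1, a kinase of the Akt family, was at 9.10, 9.57, 8.90 and 8.98 in LP+taurine, against 8.83, 8.84, 8.63 and 8.69 in control, a difference of 0.39 (limma adjusted p = 0.0475). It had 0.0525 to 0.117 without LP+taurine 1 or 4, any LP array or any control array, and 0.221 without control 3 and control 4 together. Fkbp5 and Zbtb16 were chosen after their values had been seen and passed in neither group. Fkbp5, a chaperone of the glucocorticoid receptor, was at 8.21, 9.02, 7.52 and 7.49 on the LP+taurine arrays, against 7.65, 7.30, 7.61 and 7.87 on the control arrays. Zbtb16, a zinc finger transcription factor, was at 9.11, 10.41, 7.70 and 8.12 in LP+taurine, against 7.92, 8.21, 7.97 and 7.98 in control. The 10 hypoxia target genes had medians of 0.29, 0.51, -0.14 and -0.14 on LP+taurine 1 to 4, the 7 p53 targets 0.24, 0.20, 0.07 and 0.04, and the 10 genes of the integrated stress response 0.09, 0.04, 0.06 and -0.04. Sesn1 is known as a p53 target and Ddit4 as a glucocorticoid and hypoxia target. Ddit4 was at 7.47 and 7.90 on LP+taurine 1 and 2, the lowest and the highest of its group. The part of these lists in the Sesn1 values was not tested.

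**Figure D3:**
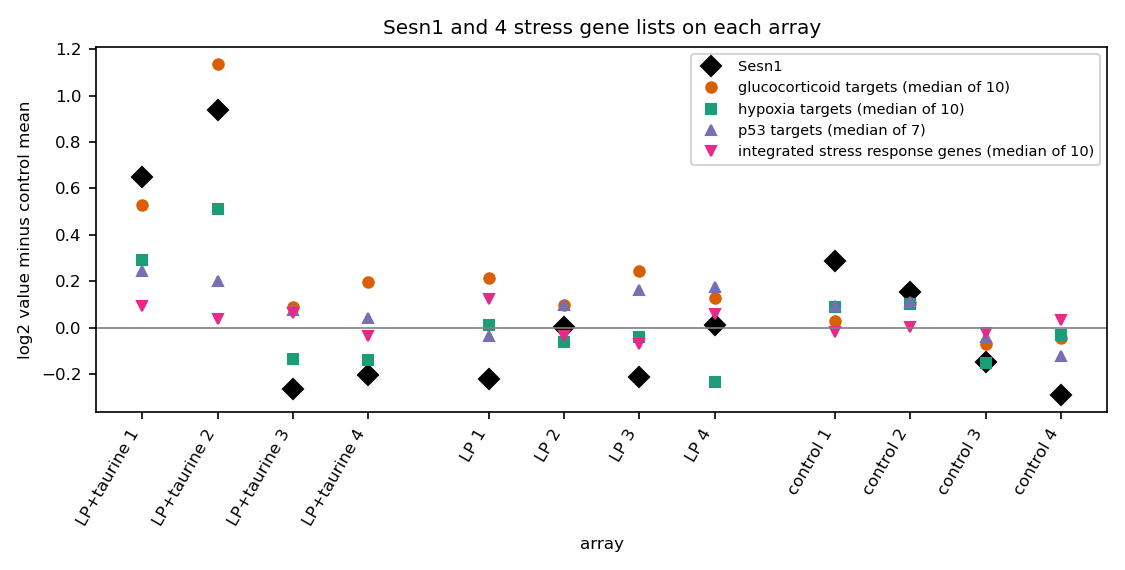
Sesn1 and the medians of 4 stress gene lists on each of the 12 arrays (horizontal axis), as log2 value minus the control mean (vertical axis). Sesn1 and the glucocorticoid list are both highest on LP+taurine 1 and 2, while the integrated stress response list lies between -0.04 and 0.09 on the LP+taurine arrays.

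The genes most like these 3 over the 12 arrays were taken by Pearson's r among 11705 probe sets of other genes, as a description. For Sesn1 they were Ankrd1, a stretch-induced ankyrin repeat protein of muscle (r = 0.957), Cnksr1, a signalling scaffold (0.954), and P4ha2, a collagen prolyl hydroxylase (0.954). Ankrd1 was at 10.21, 10.37, 8.11 and 8.42 on the LP+taurine arrays, against 9.47, 9.16, 8.22 and 8.16 on the control arrays. For Ddit4 they were Pfkfb4, an enzyme that controls glycolysis (0.878), the Wnt inhibitor gene Dkk2 (0.858) and the protease gene Adamts15 (0.848). For Rheb they were Ugcg, which makes glucosylceramide (0.977), the complement gene C7 (0.952) and Klhl41, a sarcomere-associated gene of muscle (0.947). The points share groups, array medians and arrays, and these r values rest on few arrays that stand apart, such as LP+taurine 1 and 2 for Sesn1.

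Among the 9 genes, Mtor, Rptor and Tsc2 varied together over the 12 arrays, with r of 0.91 for Mtor and Rptor, 0.93 for Mtor and Tsc2 and 0.91 for Rptor and Tsc2. These values hold the differences between the groups. After each group's mean was subtracted, r was 0.81, 0.56 and 0.66 for the same pairs. Within groups Sesn1 went with Tsc1 (0.70) and Rheb (0.68) and against Mtor (-0.62) and Rptor (-0.57). The spread of Sesn1 within groups lay mostly in LP+taurine (SD 0.61, against 0.13 in LP and 0.27 in control). There LP+taurine 1 and 2 stood apart, so these r values rest largely on few arrays. All are descriptions over 12 arrays that share the normalization.

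The other genes of the pathway were taken from 8 lists, of which 55 genes had a probe set. In LP 27 of the 55 were higher than in control and 0 were lower, beside 21.8% of all probe sets that were higher. Among probe sets above the median level 35.2% were higher in LP, and 25 of the 43 pathway genes there passed. The median difference of the 55 was 0.19, against 0.07 for all probe sets. In LP+taurine 11 of the 55 were higher than in control and 0 were lower, beside 10.2% of all probe sets that were higher. The median was 0.14, against 0.06. Among probe sets above the median level 2145 of 9478 were higher in LP+taurine, and 11 of the 43 pathway genes there passed, which is near the share of all there. These shares of 21.8% and 10.2% also stand beside each list's counts for LP and LP+taurine given next; 3 of 10 genes of the Rag and Ragulator list in LP, for one, is near its share. In LP+taurine against LP 0 of the 55 passed limma's test, 3 had an unadjusted p under 0.05, and the median was -0.03. After cyclic loess 3 of the 55 passed as higher in LP (Tbc1d7, Nprl3 and Wdr24), near the 4.98% of all probe sets, and 0 of the 55 in LP+taurine. Atg13, an autophagy gene, then passed as lower in LP at -0.24, where 1619 of all 18957 probe sets were lower. Leaving out 1 array moved the 27 to between 13 (without LP 3) and 29, with 15 without control 3. Leaving out 1 array moved the 11 to between 2 and 10, with 2 without control 3, 4 without LP+taurine 1 or 4, 5 without control 1, 6 without control 4 and 7 without LP+taurine 3. Of the 27 calls 12 held whichever single array was left out, and of the 11 calls 2 did.

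Genes that act on the TSC complex and the core of mTORC1 came first. Tbc1d7 (probe set 10794576), the third subunit of the TSC complex, was at 7.96, 7.77, 8.18 and 7.84 on the LP arrays, against 7.40, 7.58, 7.65 and 7.32 on the control arrays. The groups did not overlap, and the difference of 0.45 (SE 0.09, limma adjusted p = 0.00705) was the largest among the 55 genes in this comparison. Tbc1d7 was at 7.81, 7.68, 7.75 and 7.74 in LP+taurine, all above the control arrays, with a difference of 0.26 that did not pass (limma adjusted p = 0.0744). Gsk3b, a kinase that acts on TSC2, was 0.20 higher in LP (adjusted p = 0.0207; 0.0531 to 0.0565 without LP 3 or control 3). It was 0.26 higher in LP+taurine than in control (adjusted p = 0.0194; 0.0550 to 0.0569 without LP+taurine 1 or control 3). Of 4 core partners 2 were higher in LP, Tti1, needed for assembly of the complex, at 0.28 (adjusted p = 0.0330) and Akt1s1, which encodes the inhibitor PRAS40, at 0.20 (adjusted p = 0.0352). Both lost the call without LP 1, LP 3, control 1, control 3 or control 4, with an adjusted p of 0.0566 to 0.0999. Mlst8, a further subunit of the complex, was at 7.39, 7.26, 7.55 and 7.55 in LP+taurine and 7.57, 7.61, 7.71 and 7.54 in LP, against 7.44, 7.48, 7.45 and 7.55 in control. Mlst8 passed against control in neither group (limma adjusted p = 0.686 in LP+taurine and 0.164 in LP). It was picked for LP+taurine against LP, with a difference of -0.17 that did not pass (unadjusted p = 0.0312 and adjusted p = 0.433 by limma). Without control 3 and control 4, Tbc1d7 was at 0.44 in LP (adjusted p = 0.0180), while Gsk3b was at 0.12 in LP (adjusted p = 0.164) and 0.17 in LP+taurine (0.109), Tti1 at 0.24 (0.155) and Akt1s1 at 0.17 (0.165).

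On the amino acid arm, 5 of 7 genes of the GATOR and KICSTOR complexes, which pass amino acid signals to the Rag GTPases, were higher in LP and 1 was higher in LP+taurine, with medians of 0.20 and 0.16. Nprl3 (probe set 10732592), a subunit of the inhibitory complex GATOR1, was at 7.52, 7.59, 7.65 and 7.83 on the LP+taurine arrays and 7.67, 7.71, 7.65 and 7.66 on the LP arrays, against 7.35, 7.41, 7.30 and 7.40 on the control arrays. Both low protein groups lay wholly above the controls, by 0.31 in LP (SE 0.06, limma adjusted p = 0.00684) and by 0.28 in LP+taurine (SE 0.06, limma adjusted p = 0.0186; 0.0539 without control 3). Of GATOR2, the complex that counteracts GATOR1, Sec13 was 0.35 higher in LP (adjusted p = 0.00620) and Wdr24 0.30 higher (adjusted p = 0.00927). Sec13 also serves in vesicle coats and nuclear pores. Wdr24 was at 7.39, 7.25, 7.38 and 7.33 on the LP arrays, against 6.89, 6.97, 7.09 and 7.20 on the control arrays, which thus lay apart from LP. In LP+taurine Sec13 and Wdr24 were at 0.19 and 0.16 against control and did not pass (limma adjusted p = 0.0785 and 0.121). The KICSTOR gene Itfg2 was at 0.17 in LP (adjusted p = 0.0319), and at 0.0562 to 0.0816 in adjusted p without LP 2, 3 or 4 or control 2, 3 or 4. Depdc5, the remaining call of the list in LP at 0.20, held in 3 of 12 fits with 1 array left out. Depdc5 was added after its values had been seen. The adjusted p in LP without control 3 and control 4 was 0.0290 for Nprl3, 0.00964 for Sec13, 0.00551 for Wdr24, 0.187 for Itfg2 and 0.0753 for Depdc5. In LP+taurine it was 0.0746 for Nprl3, 0.0850 for Sec13 and 0.0486 for Wdr24.

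Of 10 genes of the Rag GTPases and their lysosomal anchor Ragulator, 3 were higher in LP and 3 in LP+taurine, with medians of 0.14 and 0.13. Lamtor1, which ties Ragulator to the lysosome, was 0.20 higher in LP (limma adjusted p = 0.0161) and 0.19 higher in LP+taurine (adjusted p = 0.0381). Rragd, a Rag GTPase, was 0.28 higher in LP (adjusted p = 0.0196; 0.0521 to 0.0536 without LP 2 or LP 3) and 0.26 higher in LP+taurine (adjusted p = 0.0479). Lamtor3, another Ragulator subunit, was 0.30 higher in LP (adjusted p = 0.0327; 0.0622 to 0.0930 without LP 1, LP 3, control 1, control 3 or control 4) and 0.38 higher in LP+taurine (adjusted p = 0.0277). In LP+taurine these 3 calls were lost without LP+taurine 4, control 1, control 3 or control 4, and each without further arrays, with an adjusted p of up to 0.0949 for Lamtor1, 0.115 for Rragd and 0.0802 for Lamtor3. Among 4 further sensors, Lars1, a leucyl-tRNA synthetase also described as a leucine sensor, was 0.20 higher in LP (adjusted p = 0.0111). Sesn3, the sestrin related to Sesn1, was picked for LP+taurine against LP, with a difference of -0.12 that did not pass (limma adjusted p = 0.642). It was at 9.15, 9.35, 9.21 and 9.37 in LP, against 9.03, 9.17, 9.05 and 8.95 in control. This difference of 0.22 did not pass (limma adjusted p = 0.0815), and it was added after its values had been seen. With control 3 and control 4 left out Lars1 passed in LP (adjusted p = 0.0441). Lamtor1, Rragd and Lamtor3 did not pass in LP (adjusted p between 0.0841 for Rragd and 0.197 for Lamtor3), and in LP+taurine they had 0.188, 0.176 and 0.148.

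Downstream, 6 of 10 genes of the S6 kinase and 4E-BP arm were higher in LP and 1 in LP+taurine, with medians of 0.18 and 0.09. Eif4ebp2, a second 4E-BP repressor, was 0.23 higher in LP (limma adjusted p = 0.0169). The elongation factor gene Eef2 was 0.20 higher (adjusted p = 0.0234) and Poldip3, an S6K1 partner in mRNA handling, also 0.20 higher (adjusted p = 0.0235). Both lost the call without LP 1, LP 3, control 1 or control 3, with an adjusted p of 0.0502 to 0.0703. Eif4e, the cap-binding protein that 4E-BP1 represses, was 0.19 higher in LP (adjusted p = 0.0264; 0.0530 to 0.0705 without LP 2, LP 4, control 2 or control 3). It was 0.20 higher in LP+taurine (adjusted p = 0.0362; 0.0568 to 0.0897 without LP+taurine 1, 3 or 4 or control 2, 3 or 4). When control 3 and control 4 were left out, the adjusted p in LP was 0.0499 for Eif4ebp2, 0.0708 for Eef2, 0.0857 for Poldip3 and 0.0850 for Eif4e, and 0.117 for Eif4e in LP+taurine.

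Of 10 genes of mTORC2 and upstream kinases, 6 were higher in LP and 3 in LP+taurine, with medians of 0.24 and 0.15. Akt2, the insulin-responsive kinase that inhibits the TSC complex, was 0.25 higher in LP (limma adjusted p = 0.00799). The mTORC2 genes Mapkap1 and Prr5 were both 0.28 higher in LP (adjusted p = 0.0123 and 0.0173), and Prr5 had 0.0518 without LP 3. Prkaa2 (probe set 10878416), a catalytic subunit of the energy sensor AMPK, which restrains mTORC1, was at 9.34, 9.25, 9.35 and 9.47 in LP+taurine and 9.31, 9.29, 9.29 and 9.15 in LP, against 9.14, 9.05, 8.97 and 8.81 in control. All arrays of both low protein groups exceeded the controls, by 0.36 in LP+taurine (SE 0.07, limma adjusted p = 0.0156) and by 0.27 in LP (SE 0.07, limma adjusted p = 0.0176). Of 8 transcription and autophagy genes, 2 were higher in each low protein group. Hif1a, a hypoxia-inducible transcription factor subunit, was 0.32 higher in LP+taurine than in control (adjusted p = 0.0135) and 0.27 higher in LP (adjusted p = 0.00914). Srebf2, a regulator of cholesterol synthesis, was 0.26 higher in LP (adjusted p = 0.0161). The remaining calls in LP+taurine were Akt2, 0.21 higher (limma adjusted p = 0.0259), Prkab1, 0.24 higher (0.0438), and Mitf, 0.28 higher (0.0493). With 1 array left out, Akt2 held in 8 of 12 fits, and Prkab1 and Mitf in 2 of 12 each. Akt2 (adjusted p = 0.0388) and Mapkap1 (0.0250) passed in LP without control 3 and control 4. Under the same omission Prr5 (0.0896), Prkaa2 (0.126), Hif1a (0.0520) and Srebf2 (0.0546) did not pass. In LP+taurine Prkaa2 had 0.0668, Hif1a 0.0609, Akt2 0.112, Prkab1 0.0444 and Mitf 0.272.

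**Figure D4:**
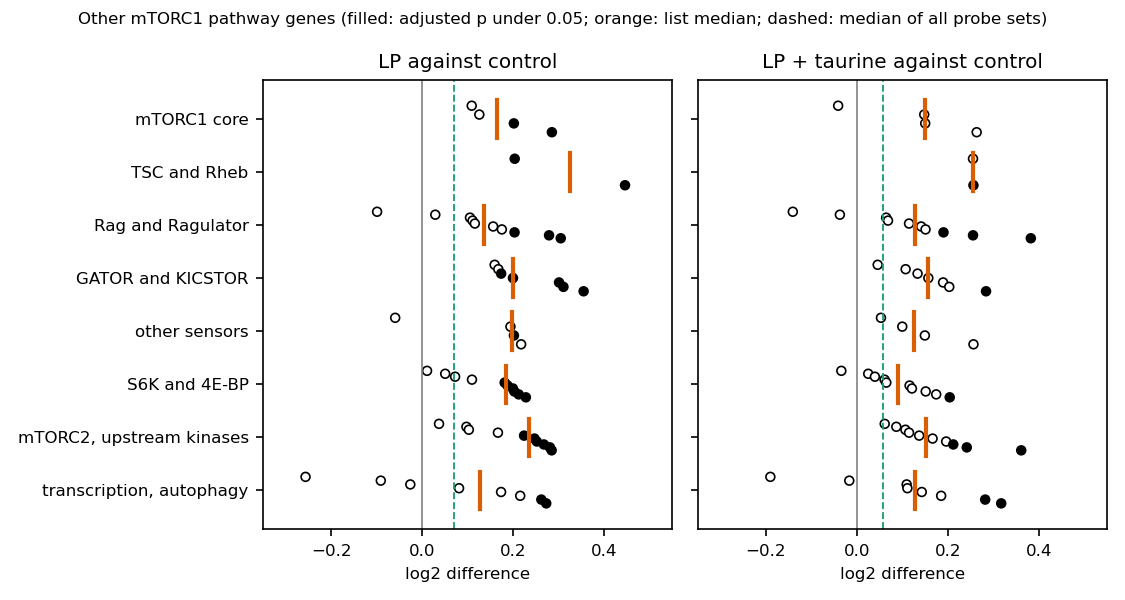
Log2 difference (horizontal axis) of 55 further pathway genes in 8 lists for LP against control and LP+taurine against control, 1 point a gene. Filled points have an adjusted p under 0.05, orange bars are list medians and the dashed line is the median of all probe sets; 27 points are filled for LP and 11 for LP+taurine, and all filled points lie above 0.

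The integrated stress response is set off by amino acid shortage through the kinase GCN2 and induces Sesn2. Its genes gave 2 higher and 1 lower of 10 in LP. Of all probe sets 21.8% were higher in LP and 2263 of 18957 were lower. The median of the list was 0.08, against 0.07 for all probe sets. Eif2ak4, which encodes GCN2, was 0.29 higher (limma adjusted p = 0.0105), while its downstream gene Chac1 fell by 0.25 (adjusted p = 0.0267; 0.0511 to 0.0742 without LP 2, control 3 or control 4). Psat1, an enzyme of serine synthesis that the response induces, was at 8.65, 8.41, 8.77 and 8.77 in LP+taurine and 9.13, 9.04, 9.15 and 9.09 in LP, against 8.62, 8.70, 8.79 and 9.09 in control. It was 0.30 higher in LP than in control (limma adjusted p = 0.0370; 0.0583 to 0.0945 without any LP array or control 1, 2 or 3). Its LP+taurine arrays lay below all LP arrays, with a difference of -0.45 (SE 0.10, unadjusted p = 0.000677 by limma). This did not pass the adjusted threshold (limma adjusted p = 0.347). Ppp1r15a went the other way, with all LP+taurine arrays above all LP arrays, at 0.51 (unadjusted p = 0.0163 and adjusted p = 0.402 by limma). The median of the list in LP+taurine against LP was 0.04. Vldlr, a lipoprotein receptor, was 0.45 higher in LP+taurine than in control (adjusted p = 0.0411; 0.0520 to 0.106 without LP+taurine 1, 2 or 4, LP 2 or 3 or control 1, 3 or 4). Asns, the asparagine synthetase gene that the response induces, was at 9.42, 9.11, 9.44 and 9.67 in LP, against 8.91, 9.41, 9.18 and 9.42 in control, and did not pass (difference 0.18, limma adjusted p = 0.451). Asns was added after its values had been seen. Of 7 p53 targets 1 was higher in LP, Cdkn1a at 0.30 (adjusted p = 0.0102), a gene also in the glucocorticoid list, and 1 in LP+taurine, Mdm2 at 0.34 (adjusted p = 0.0154), beside 21.8% and 10.2% of all probe sets. Of 10 hypoxia targets 0 were higher and 1 was lower in LP, where 2263 of all 18957 probe sets were lower. The lower gene was Ankrd37 at -0.29 (limma adjusted p = 0.0294, and 0.0525 to 0.0813 without LP 2, 3 or 4 or control 1 or 4). After cyclic loess none of these calls passed. Without control 3 and control 4 Eif2ak4 (adjusted p = 0.0164), Psat1 (0.0146) and Ankrd37 (0.0276) passed, and Chac1 (0.153), Cdkn1a (0.0659), Vldlr (0.242) and Mdm2 (0.0667) did not.

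Without control 3 and control 4, 9 of the 55 pathway genes were higher in LP, where 10.8% of all probe sets were. In LP+taurine 2 of the 55 were higher, where 2.07% of all probe sets were. Of the calls made with all arrays, 9 of the 27 in LP and 1 of the 11 in LP+taurine still passed. The parts of the hepatocyte, endothelial and adipocyte markers and of the array medians in these differences were not tested.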

How the data were processed

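RNA from 12 pools was hybridised to Affymetrix arrays. The submitters' processing notes name RMA and R 3.2.2, and no genome build. Each deposited value is a log2 expression level of 1 probe set. Per the deposited descriptions the authors kept probe sets detected on at least 50% of the arrays of each group, which left 18957 of 29214. The authors' deposited tables of selected probe sets (SAM at a false discovery rate of 1%, 1318 and 895 probe sets) give p-values, linear group means (intensity scale) and the ratio of those means, per the file headers.

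Here all 12 arrays entered 1 fit of a mean per group with limma 3.58.1 under R 4.3.3 (lmFit and eBayes, two-sided), with Benjamini-Hochberg adjustment over 18957 probe sets. The fit was tested on simulated data, drawn independently for each probe set and array with no shift between arrays. Such data cannot show how the calls depend on the normalization or on control 3 and control 4. The members and all gene lists, markers and motifs were chosen with earlier results of these data known. The platform annotation gave 1 symbol for 11721 probe sets, and a gene was represented by its brightest probe set. From each list and comparison up to 4 genes with the smallest p among those that passed were picked, or up to 2 where none passed. Of the picks where none passed, only some are given in the text. For the 3 genes with the largest range the 3 most alike were named. Genes outside this rule are marked in the text as chosen after their values were seen. Same-number arrays came from different dams, and their deviations correlated above 0.1 in 3 of 12 pairs, so numbers were not used as pairs. Alternatives tried were a replicate block, fits of the 2 groups alone, trend and robust options, a level filter, quantile, median and cyclic loess (3 iterations) normalization, array weights, all probe sets, a mean of a gene's probe sets, other thresholds and leaving out arrays. Running them all for the pathway lists was added after seeing the data. Scan dates and array batches were not analysed here. The number of arrays limits the precision.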

Additional observations from a re-analysis of the deposited data

Results flagged for a closer look

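Rps6kb1 on LP+taurine 2 was at 8.99, while LP+taurine 1, 3 and 4 lay between 9.27 and 9.29. The gap was 0.931 of the group's range, above Dixon's 95% critical value for a group of this size. Each of the 9 genes was examined in 3 groups, 27 in all, and 1 stood out, where chance gives about 1 in 20. Without LP+taurine 2, Rps6kb1 in LP+taurine differed from control by 0.19 (limma adjusted p = 0.0510) and from LP by -0.10 (adjusted p = 0.821).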

How the results depend on the processing

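Of the 9 genes, 5 passed in LP against control as deposited, 2 after quantile normalization, 3 after median centring, 1 after cyclic loess and 3 at an adjusted p of 0.01, and 4 to 5 when 1 array was left out. In LP+taurine against control 3 passed, against 1 after quantile normalization and 0 after median centring, after cyclic loess, without control 3 and control 4 and at an adjusted p of 0.01, and 0 to 3 when 1 array was left out. With the replicate block 5, 2 and 0 passed in the 3 comparisons, Tsc2 losing its call in LP+taurine against control (limma adjusted p = 0.0694). Of the 55 pathway genes, 27 passed in LP, against 7 after quantile normalization, 8 after median centring, 4 after cyclic loess, 9 without control 3 and control 4, 6 at an adjusted p of 0.01 and 13 to 29 with 1 array left out. In LP+taurine 11 passed, against 7 with the replicate block, 6 with only the 2 groups compared, 3 after quantile normalization or median centring, 0 after cyclic loess, 6 in the table of all probe sets, 2 without control 3 and control 4, 6 without LP+taurine 1 and 2, 0 at an adjusted p of 0.01, 21 at 0.10 and 2 to 10 with 1 array left out. Values that changed sign had not passed before: in LP against control Tsc1 was at -0.00867 and Rheb at -0.0539 after cyclic loess, and Rheb at -0.0068 after quantile normalization. In LP+taurine against control Rps6kb1 was at -0.0131 after cyclic loess, and Sesn1 at -0.234 without LP+taurine 1 and 2. In LP+taurine against LP, Tsc1 was at -0.0587 and Sesn1 at -0.128 without those arrays. With 1 array left out, Rptor ran from -0.023 to 0.034 (below 0 without LP+taurine 4, LP 1 or LP 4) and Tsc1 from -0.0204 to 0.0724 (below 0 without LP+taurine 1, LP+taurine 2 or LP 1). Over all settings of the single genes 583 kept direction and side of the threshold, 47 lost a call, 2 gained one and 13 changed sign. The 583 include genes that had no call to lose. They also include fits without an array of the group not compared, which leave the difference as it was. The 583 are thus no measure of how stable the calls were. The cause of the changes was not tested.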
